A study of Mus musculus with 6 samples.

Results

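The mitral valve fibroblasts described here carried the transcription factor gene Tcf21 and were low in Pi16 and Smoc2, which mark other fibroblast states of the valve. They were chosen on UMIs, the counted mRNA molecules of each cell barcode. A barcode had to have at least 300 genes, at most 10% mitochondrial UMIs, at least 1% of its UMIs from Dcn, Col1a1 and Col1a2 together, and no UMI of Ptprc or Pecam1. These collagen-gated fibroblasts became members if they held at least 1 UMI of Tcf21, fewer than 3 of Pi16, fewer than 4 of Smoc2, Lpl and Col15a1 together, at most 1 of Wif1, none of Chad, fewer than 4 of Cilp, Thbs4 and Col8a1 together, fewer than 5 of Mmp3 and Lcn2 together and fewer than 5 of Igfbp3. The rule found 2211 members among 34660 gated fibroblasts, 53526 barcodes kept and 58351 barcodes in all. The mice labelled inflamed were K/B.g7, and the controls were B.g7. The K/B.g7 genotype adds the KRN transgene, which encodes a self-reactive T cell receptor, and is a known model of autoantibody-mediated joint and heart valve disease, while both genotypes share the g7 haplotype of the H2 (MHC) locus. Each genotype gave 1 library of live sorted valve cells at 3, 8 and 25 weeks of age, so an age has no replicate and the number of mice behind a library is not given in the labels.

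Tcf21 is a basic helix-loop-helix factor of the epicardium and of the fibroblasts that descend from it, and it is a common marker of resident fibroblasts in the adult mouse heart. Dpep1, a membrane dipeptidase, and Inmt, an indolethylamine N-methyltransferase, are often found with it. Pi16, a secreted protease inhibitor homologue, marks adventitial progenitor-like fibroblasts in many mouse tissues. Smoc2 encodes a secreted calcium-binding matrix protein. Fibroblasts of the valve make its collagen, elastin and proteoglycan layers, and in inflamed tissue such cells can also display chemokines and MHC molecules.

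Members by age (3, 8, then 25 weeks, the order of all values below) numbered 103, 417 and 971 for K/B.g7 and 91, 351 and 278 for B.g7. Their summed UMIs were 7469561 of 243691001 in the series, with a lowest library of 270125 (B.g7 at 3 weeks) and a highest of 2569406 (K/B.g7 at 25 weeks). Median UMIs per member were 3719, 3192 and 2553 for K/B.g7 and 2898, 4450 and 4945 for B.g7, so the 25-week libraries were the most unlike in depth. Because the limits of the rule are absolute UMIs, they are stricter for a deep cell than for a shallow one. In all 212 members were predicted doublets, and 28 members carried a barcode that also occurred in another library. Sex was mixed and unequal: members with Xist and no Y-linked UMI against members with Y-linked UMIs and no Xist were 34 against 27, 257 against 62 and 100 against 394 for K/B.g7, and 36 against 15, 321 against 1 and 109 against 82 for B.g7.

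Tcf21 itself, which the rule required, stood at 1 UMI in 1041 members, at 2 in 513 and at 3 or more in 657. Of the 19418 gated fibroblasts with a Tcf21 UMI, 17207 (88.6%) lay over some limit, most often that on Smoc2, Lpl and Col15a1 (13175 cells, 67.9%) or on Pi16 (10258 cells, 52.8%). Just inside the Pi16 limit, at 2 UMIs, lay 456 members, and just outside it, at 3 UMIs, lay 313 cells that met every other condition. At 3 UMIs of Smoc2, Lpl and Col15a1 there were 585 members, and at 4 there were 526 cells outside. The members are therefore a range cut from a continuum of counts, with 1111 of them (50.2%) at 0 Pi16 UMIs.

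The label was checked against its own marker genes. Levels are given as CPM, the UMIs of a gene per 1000000 UMIs summed over the members of a library. Tcf21 stood at 473.7, 658.7 and 762.0 CPM in K/B.g7 members and at 547.9, 997.3 and 521.7 CPM in B.g7 members. Inmt was at 2.52, 333.3 and 288.0 CPM in K/B.g7 members and at 7.404, 154.8 and 137.5 CPM in B.g7 members. It was nearly missing at 3 weeks in both genotypes and present from 8 weeks on. In the other gated fibroblasts Inmt was at 5.75, 104.2 and 79.96 CPM in K/B.g7 and at 10.7, 71.5 and 81.3 CPM in B.g7, below the members at 8 and 25 weeks and above them at 3 weeks.

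With each cell thinned to 2000 UMIs, the share of members with an Inmt UMI was 1.19%, 29.7% and 23.6% in K/B.g7 and 2.99%, 9.86% and 13.2% in B.g7. The other gated fibroblasts had 0.873%, 12.8% and 8.54% in K/B.g7 and 0.916%, 6.57% and 7.79% in B.g7. Cells with Pecam1, an endothelial gene, reached at most 2.04% in any library, which stands for the background of free RNA, at the same thinned depth. Members were above that background at 8 and 25 weeks and, with only 1 and 2 positive cells, could not be told from it at 3 weeks.

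Dpep1 did not set the members apart. It was at 121.0, 453.1 and 625.4 CPM in K/B.g7 members and at 222.1, 537.7 and 296.2 CPM in B.g7 members. The other gated fibroblasts had 174.4, 528.4 and 428.1 CPM in K/B.g7 and 238.0, 548.9 and 345.7 CPM in B.g7, so members were higher at 25 weeks of K/B.g7 and lower in the 5 other libraries. Against the 2888 low-marker cells that met every limit but held no Tcf21 UMI, members had more Dpep1 in each of the 6 libraries. Those low-marker cells had 76.5, 410.6 and 439.2 CPM in K/B.g7 and 115.5, 117.8 and 67.4 CPM in B.g7. Inmt was present in them too, at 13.9 to 232.0 CPM (median 56.3) over the libraries, against 2.52 to 333.3 CPM (median 146.2) in members. Dcn, the proteoglycan decorin that the gate used, ranged over 11690 to 16240 CPM in members, and Gsn, which encodes gelsolin, was at 16880, 28170 and 22960 CPM in K/B.g7 members and 31220, 42040 and 37260 CPM in B.g7 members. The markers thus describe a Tcf21-positive fibroblast with Inmt above the gated average from 8 weeks, and with Dpep1 near the level of the other gated fibroblasts.

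Set beside the other 32449 gated fibroblasts of the same library, members differed in the same direction in all 6 libraries and by a median of at least 2-fold for 21 of 2955 genes (0.711%), genes of the rule left out. All 21 were lower in members and 0 (0.0%) were higher, so the genes higher in members stayed under 2-fold. No test was made of this, since the rule chose the cells. Apoe, the lipid carrier apolipoprotein E, was at 14380, 13300 and 9445 CPM in K/B.g7 members and at 15250, 21840 and 16260 CPM in B.g7 members. In the other gated fibroblasts it was at 8273, 5876 and 4605 CPM in K/B.g7 and at 8799, 18370 and 8621 CPM in B.g7. Members were higher in every library, by a median of 0.86 on the log2 scale, and least so in B.g7 at 8 weeks.

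Other genes that were higher in members in all 6 libraries were Tst, a mitochondrial sulfurtransferase (median log2 ratio 0.84), Gucy1a1, a subunit of the nitric oxide receptor guanylate cyclase (0.83), Fgl2, a fibrinogen-like protein (0.82), and Gas6, the ligand of the TAM receptor kinases (0.72). The helix-loop-helix inhibitors Id2 and Id3, which are known targets of BMP signalling, were higher by 0.73 and 0.67. The list went on with Vit (0.62), Lrrc17 (0.56), Mgp, an inhibitor of calcification (0.47), and the growth factor Mdk (0.45). These differences had the same sign in 6 of 6 libraries after thinning, apart from Epyc and Gng8, which were higher in 5 of 6.

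Genes lower in members in all 6 libraries were led by Spp1, osteopontin (median log2 ratio -3.21), Cxcl14, a stromal chemokine (-2.69), and Npy, neuropeptide Y (-2.50). Scx, the tendon transcription factor scleraxis (-2.02), and Prg4, the lubricating proteoglycan of joints (-1.73), were also lower. Prg4 was at 181.4, 441.6 and 392.7 CPM in K/B.g7 members and at 55.5, 204.4 and 208.1 CPM in B.g7 members, against 604.7, 1470 and 1174 CPM in the other gated fibroblasts of K/B.g7 and 388.4, 556.5 and 719.3 CPM in those of B.g7. Members held less Prg4 in every library. Scara5, a ferritin receptor found on adventitial fibroblasts, was lower by a median of 1.61 log2 units, and hardly so in K/B.g7 at 25 weeks, where the ratio was -0.11.

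**Figure D1:**
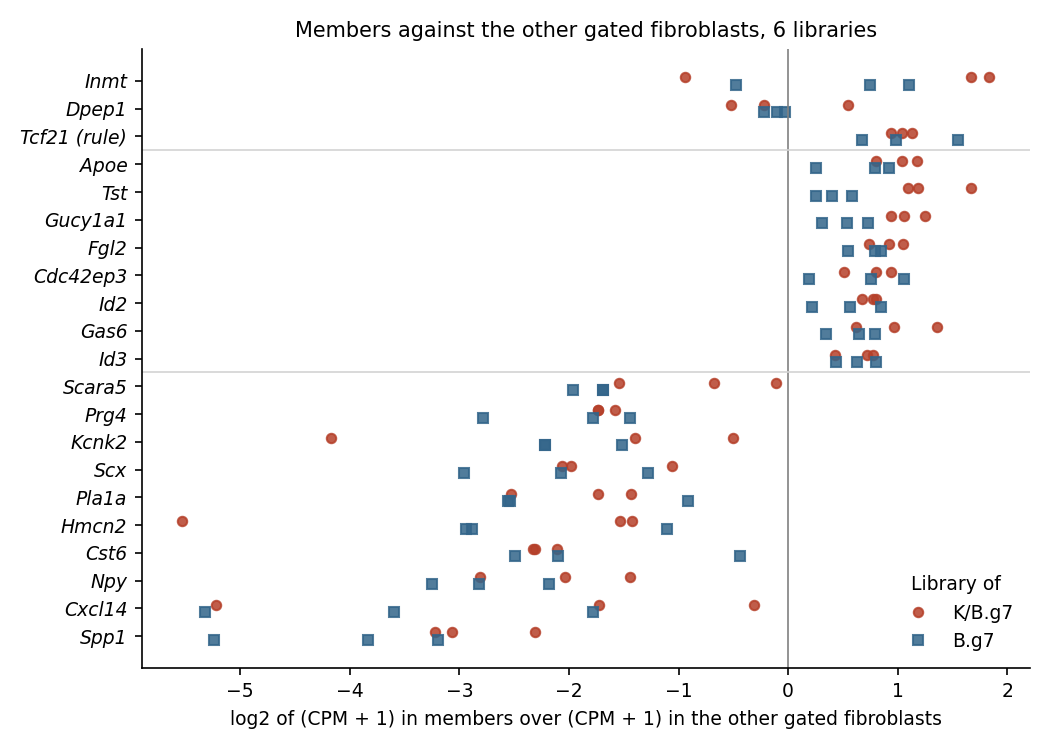
Members against the other gated fibroblasts: the x axis is the log2 ratio of (CPM + 1), the rows are genes, and each point is 1 of the 6 libraries (circles K/B.g7, squares B.g7). The top rows hold the 3 label markers, of which Tcf21 was part of the rule, the middle rows the 8 genes of highest median ratio (Apoe 0.86 to Id3 0.67) and the bottom rows the 10 of lowest (Spp1 at -3.21).

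The share of members among gated fibroblasts was 2.66%, 7.23% and 7.17% for K/B.g7, with exact (Clopper-Pearson) 95% intervals of 2.18 to 3.22, 6.57 to 7.93 and 6.74 to 7.62. For B.g7 it was 3.29%, 12.1% and 4.78%, with intervals of 2.66 to 4.03, 10.9 to 13.3 and 4.24 to 5.36, which cover counting error only. The share was lowest at 3 weeks in both genotypes, and B.g7 at 8 weeks stood above all other libraries. The mean was 5.69% over K/B.g7 libraries and 6.71% over B.g7 libraries (n = 3 libraries each, difference -1.02 percentage points), which an exact two-sided permutation test did not separate (p = 0.8; Benjamini-Hochberg adjusted over 2 shares, 1.0; the smallest p it allows is 0.1). By age, K/B.g7 minus B.g7 was -0.631 points at 3 weeks, -4.84 at 8 weeks and 2.40 at 25 weeks.

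Shares of all barcodes kept were 1.80%, 4.48% and 4.82% for K/B.g7 and 2.41%, 6.08% and 3.16% for B.g7, with an exact permutation p of 1.0. The mean difference among gated fibroblasts turned to 0.487 points without the 3-week K/B.g7 library and to 1.65 points without the 8-week B.g7 library. When the rule was applied to cells thinned to 2000 UMIs, the shares of gated fibroblasts were 7.43%, 15.4% and 11.2% for K/B.g7 and 6.24%, 27.4% and 12.1% for B.g7. At this depth K/B.g7 was above B.g7 at 3 weeks and below it at 25 weeks, the opposite of the shares with all UMIs, and K/B.g7 was below B.g7 at 8 weeks at either depth.

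**Figure D2:**
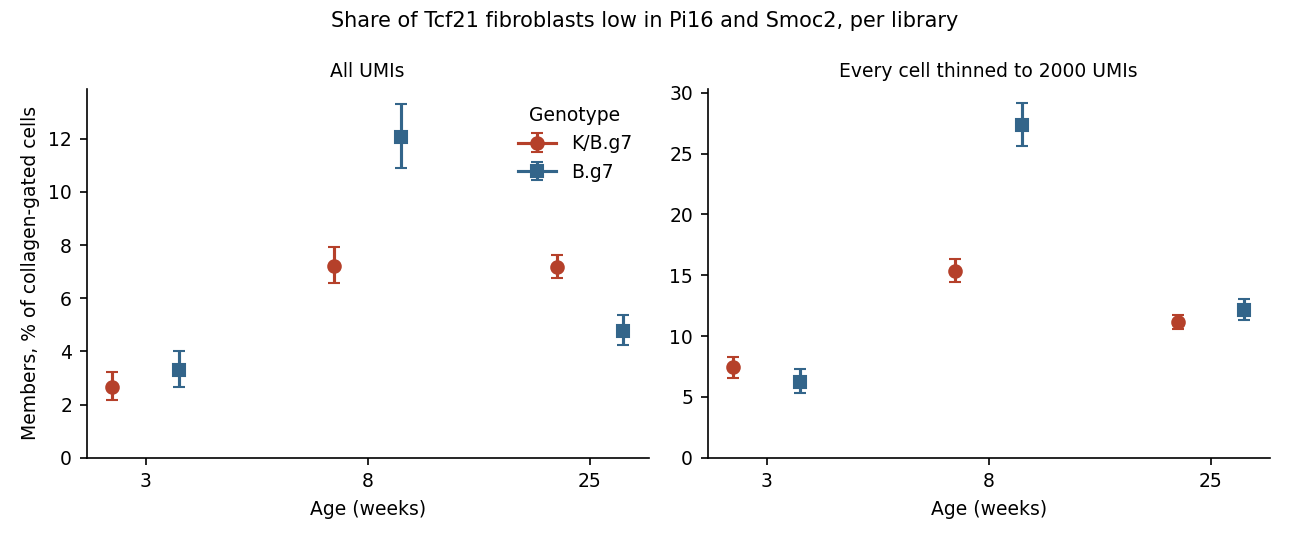
Members as a percentage of collagen-gated cells at each age (evenly spaced, in weeks), with all UMIs on the left and every cell thinned to 2000 UMIs on the right; bars are exact 95% intervals for counting error. B.g7 at 8 weeks is highest in both panels (12.1% and 27.4%), and the order of the genotypes at 3 and 25 weeks differs between the panels.

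Between genotypes, members of K/B.g7 held more mRNA of the lymphoid chemokine Ccl19, the chemokine Cxcl14, the matrix cross-linker Lox and the detoxifying enzyme Gstp1, and less of the secreted glycoprotein Myoc and the respiratory subunit gene Cox4i2. UMIs were summed per library and fitted in edgeR with genotype and age in 1 model, so that libraries of the same age form a block. Among 9723 genes, 23 (0.237%) were higher and 9 (0.0926%) lower in K/B.g7 at an FDR of 0.05 by edgeR's quasi-likelihood test with Benjamini-Hochberg adjustment, 32 (0.329%) together. At an unadjusted p under 0.05 the same fit had 849 genes (8.73%). In such sums, more cells with a transcript and more transcript per cell cannot be told apart.

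Ccl19, the ligand that draws Ccr7-bearing lymphocytes and dendritic cells, was at 156.2, 173.2 and 322.6 CPM in K/B.g7 members and at 44.4, 57.7 and 100.4 CPM in B.g7 members. Every K/B.g7 library was above every B.g7 library. The means were 217.3 ± 91.6 CPM in K/B.g7 and 67.5 ± 29.3 CPM in B.g7 (SD, n = 3 each), with a fitted log2 change of 1.61 (SE 0.21, adjusted p = 0.00599 by edgeR). Ccl19 is read from 1 of 2 gene identifiers of that symbol (chromosome 4, 42754525 to 42756577, minus strand, mm10), the second being at 0, and near-identical copies exist in the mouse genome, so its count is uncertain to that extent.

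Cxcl14 was at 0, 233.8 and 245.2 CPM in K/B.g7 members and at 0, 6.11 and 45.1 CPM in B.g7 members. No UMI was seen at 3 weeks in either genotype, and at 8 and 25 weeks K/B.g7 was higher (log2 change 3.37, SE 0.43, adjusted p = 0.00599 by edgeR). Of 12 chemokine genes tested, Ccl19 and Cxcl14 rose and none fell, with 9 above 0 and a median log2 change of 0.47, against 0.01 over all genes. Cxcl12, the ligand of Cxcr4, did not pass, with a log2 change of 1.05 and an adjusted p of 0.141, nor did Ccl7 at 1.02 and 0.106.

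Gxylt2, a xylosyltransferase that extends sugars on Notch-type repeats, was at 272.2, 165.2 and 156.1 CPM in K/B.g7 and at 96.2, 66.5 and 61.9 CPM in B.g7. The genotypes did not overlap (log2 change 1.31, SE 0.21, adjusted p = 0.0125 by edgeR). Gstp1, a pi-class glutathione S-transferase, was at 105.8, 191.9 and 192.7 CPM in K/B.g7 and at 25.9, 84.2 and 80.0 CPM in B.g7. It was higher at every age without overlap (1.28, SE 0.22, 0.0243), and its near-copy Gstp2 rose too, so reads may be shared between the pair. Both Gxylt2 and Gstp1 were also higher in K/B.g7 at every age in the other gated fibroblasts. Gxylt2 there was at 231.2, 144.1 and 126.3 CPM in K/B.g7 and at 119.7, 65.5 and 77.8 CPM in B.g7. Gstp1 there was at 103.2, 210.9 and 183.1 CPM in K/B.g7 and at 33.4, 71.5 and 66.9 CPM in B.g7.

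Lox, lysyl oxidase, cross-links collagen and elastin. It was at 146.2, 24.5 and 52.1 CPM in K/B.g7 and at 18.5, 11.5 and 13.8 CPM in B.g7. The 3-week K/B.g7 library was far the highest, and the lowest K/B.g7 library was still above the highest B.g7 one (log2 change 1.81, SE 0.30, adjusted p = 0.0192). It was the 1 gene that passed of 17 tested in the myofibroblast and TGF-beta list, whose median was 0.23; Acta2, smooth muscle actin, had a log2 change of 1.12 and did not pass (adjusted p = 0.186). None of the 13 collagens on the list passed (10 above 0, median 0.13), while Col13a1, which was on no list, fell (-2.51).

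Apod, a lipid-binding lipocalin, was at 85.7, 121.2 and 70.1 CPM in K/B.g7 and at 55.5, 29.2 and 29.1 CPM in B.g7. Nr2f2, the nuclear receptor COUP-TFII, was at 50.4, 80.1 and 126.5 CPM in K/B.g7 and at 11.1, 42.1 and 44.4 CPM in B.g7. Neither overlapped between the genotypes, with log2 changes of 1.39 and 1.25 (SE 0.25 and 0.24, adjusted p = 0.0319 and 0.0402 by edgeR). Also higher were Stc2, the secreted hormone-like stanniocalcin (1.64), Sult5a1, a sulfotransferase (1.51), Serpina3n, a secreted serpin (1.41), and Ntf3, neurotrophin 3 (1.88). Scara5 and C7, a component of the membrane attack complex, rose by 2.36 and 2.08 on the log2 scale, with K/B.g7 higher at 8 and 25 weeks only.

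Of the 9 genes that fell, Myoc and Cox4i2 had the highest levels. Myoc, myocilin, which is best known from the drainage tissue of the eye, was at 166.3, 184.7 and 129.2 CPM in K/B.g7 and at 473.9, 444.7 and 307.8 CPM in B.g7. All 3 K/B.g7 libraries were below all 3 B.g7 libraries, with means of 160.1 ± 28.3 CPM in K/B.g7 and 408.8 ± 88.7 CPM in B.g7 (SD, n = 3 each) and a log2 change of -1.38 (SE 0.21, adjusted p = 0.0103). Cox4i2, an isoform of a cytochrome c oxidase subunit, was at 110.9, 25.2 and 56.4 CPM in K/B.g7 and at 203.6, 103.2 and 133.2 CPM in B.g7. It was lower at every age, although the 3-week K/B.g7 library overlapped the 8-week B.g7 one (-1.43, SE 0.24, 0.0192).

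Smaller transcripts fell alongside. Rtn1, a reticulon of the endoplasmic reticulum, was at 17.6, 32.5 and 17.9 CPM in K/B.g7 and at 40.7, 61.8 and 50.9 CPM in B.g7, without overlap (log2 change -1.28, adjusted p = 0.0381). Smad6, an intracellular inhibitor of BMP signalling, was at 22.7, 8.66 and 14.01 CPM in K/B.g7 and at 14.8, 106.6 and 37.8 CPM in B.g7. At 8 and 25 weeks it was lower in K/B.g7, and at 3 weeks it was not (-2.11, adjusted p = 0.0489). Atoh8, a helix-loop-helix factor, fell by 2.74 on the log2 scale and Col13a1, a transmembrane collagen, by 2.51, both at under 50 CPM in each library.

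**Figure D3:**
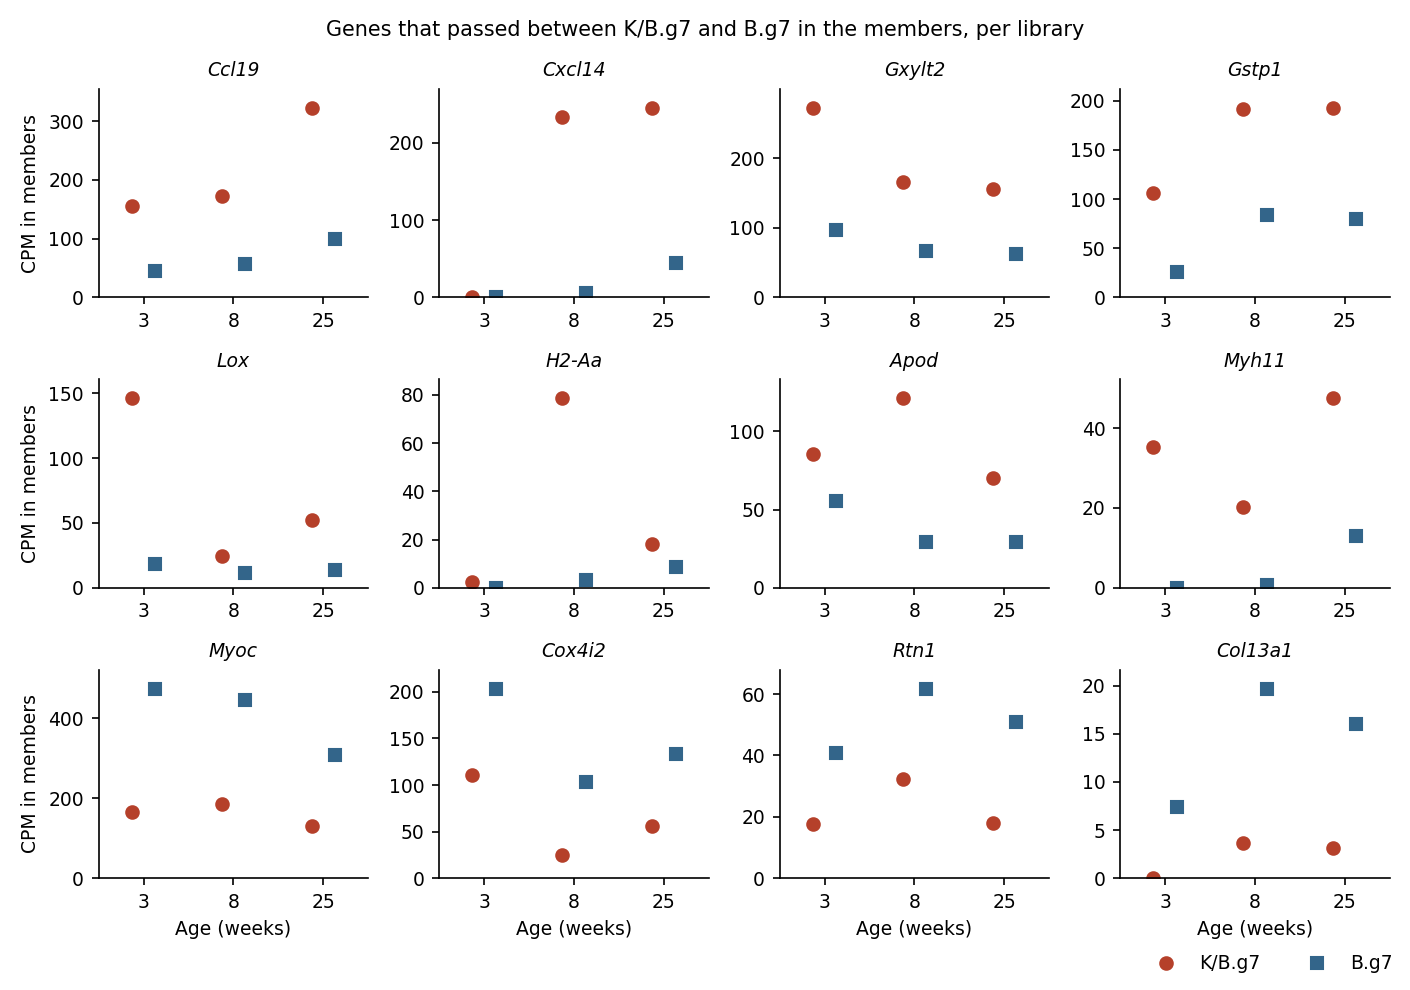
CPM in members for 12 genes that passed between genotypes, with age in weeks on the x axis and a linear y axis from 0; each point is 1 library (circles K/B.g7, squares B.g7). Ccl19, Gxylt2, Gstp1, Lox, Apod, Myh11, Myoc, Rtn1 and Col13a1 show no overlap between genotypes, while Cxcl14 and H2-Aa differ mainly at 8 and 25 weeks.

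MHC class II genes, which present peptide to CD4+ T cells and are normally low in fibroblasts, had their highest levels in K/B.g7 members at 8 weeks. H2-Aa was at 2.52, 78.6 and 18.3 CPM in K/B.g7 and at 0, 3.40 and 8.73 CPM in B.g7. It was higher at each age but overlapped between genotypes, and it was the 1 of 5 class II genes tested that passed (log2 change 2.71, SE 0.51, adjusted p = 0.0383 by edgeR). All 5 were above 0, with a median of 2.25; Cd74, the invariant chain, had 2.25 with an adjusted p of 0.279. The reference build mm10 is of C57BL/6 mice, which carry another H2 haplotype than g7, and how reads of g7 alleles were counted was not tested.

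Other immune lists moved less when the ages were fitted together. None of 12 MHC class I genes tested passed (11 above 0, median 0.32), nor did any of 11 interferon-gamma genes (9 above 0, median 0.19) or of 11 type I interferon genes (9 above 0, median 0.38). Single ages, with 1 library per genotype, were not tested and were less alike. For type I interferon, 16 genes were higher and 0 lower in the 8-week K/B.g7 members (median log2 ratio 0.95). Interferon-gamma genes there were 14 higher and 1 lower (1.36), and class I genes 12 and 1 (0.63). In that order, the 25-week pair gave 10 and 5, 5 and 9, and 4 and 9. The 3-week pair gave 7 and 5, 4 and 8, and 8 and 4. Ifi205, an interferon-inducible DNA sensor gene that was on no list, was at 2.52, 152.2 and 134.7 CPM in K/B.g7 and at 11.1, 13.6 and 35.6 CPM in B.g7. It rose with a log2 change of 2.36 (adjusted p = 0.0140 by edgeR), with K/B.g7 higher at 8 and 25 weeks and lower at 3 weeks. Of 13 epicardial lineage factors none passed, with 3 above 0 and a median of -0.15, and Tcf21 was not tested because the rule used it.

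Markers of other cell types moved with some of these genes. The summed level of 7 B cell and immunoglobulin genes was 2.52, 137.1 and 5.45 CPM in K/B.g7 members and 0, 10.9 and 8.73 CPM in B.g7 members. It was highest in the 8-week K/B.g7 library, where class II was also highest, and 21 of the 417 members there had 2 or more such UMIs, against 1 of 351 members in B.g7 at 8 weeks. The 8 macrophage genes summed to 47.9, 57.0 and 37.8 CPM in K/B.g7 and to 3.70, 8.15 and 67.7 CPM in B.g7. Few cells held many of these UMIs, with 16 of 19 in 1 member of K/B.g7 at 3 weeks and 81 of 93 in 4 members of B.g7 at 25 weeks. Class II levels, summed over 8 genes, were at 22.7, 599.6 and 98.9 CPM in K/B.g7 members and 7.404, 27.2 and 83.7 CPM in B.g7 members. In the other gated fibroblasts they were at 65.5, 566.1 and 59.6 CPM in K/B.g7 and at 18.2, 100.6 and 84.0 CPM in B.g7. Members were lower at 3 weeks in both genotypes and at 8 weeks in B.g7. They were higher at 25 weeks in K/B.g7, and near those cells at 8 weeks in K/B.g7 and at 25 weeks in B.g7. The part of other cell types in the class II difference between genotypes was not tested. H2-Aa was too low to be tested among members with fewer than 2 UMIs of each other lineage.

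Hemoglobin and other red cell genes summed to 5.04, 6544 and 181.4 CPM in K/B.g7 members and to 1795, 103.2 and 479.5 CPM in B.g7 members. They were high in 1 library of each genotype. In the 8-week K/B.g7 library 28 of 417 members held 5 or more hemoglobin UMIs, and in the 3-week B.g7 library 1 of 91 did. Without members of that kind, 44 genes passed between genotypes, of which 31 were among the 32. Mesothelial genes summed to 5.04, 9.38 and 60.7 CPM in K/B.g7 and to 0, 17.6 and 218.3 CPM in B.g7, and 8 of the 278 members of B.g7 at 25 weeks held 95.7% of the mesothelial UMIs of that library. Upk3b, a mesothelial gene, passed as lower in K/B.g7 (log2 change -2.10), beside those few cells, whose part in the difference was not tested. Myh11, smooth muscle myosin, passed as higher in K/B.g7 (2.5), beside mural genes that summed to 105.8, 111.8 and 187.2 CPM in K/B.g7 and to 77.7, 83.5 and 114.2 CPM in B.g7; their part in the Myh11 difference was not tested.

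**Figure D4:**
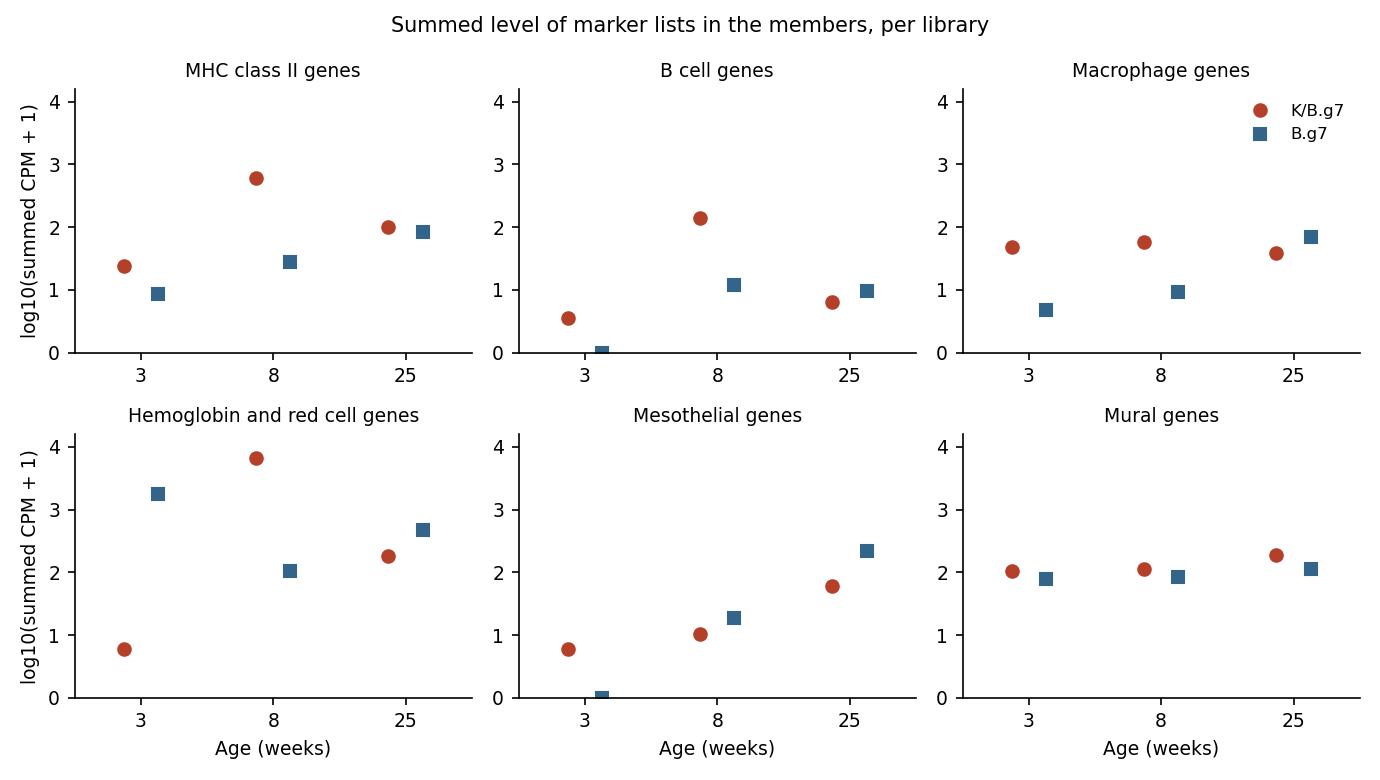
Summed level of 6 marker lists in members, as log10 of (summed CPM + 1), with age in weeks on the x axis; each point is 1 library (circles K/B.g7, squares B.g7). MHC class II, B cell and red cell genes peak in K/B.g7 at 8 weeks, and mesothelial genes are highest at 25 weeks, where B.g7 reached 218.3 CPM.

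The genotype calls rested on the pairing by age and on each age, most of all on the 3-week libraries. Without age as a block no gene passed by edgeR (474 at an unadjusted p under 0.05), and DESeq2 called 9 with the block. Without the 3-week pair 3 genes passed, 2 of them, Plac9b and Scara5, among the 32, and among members with Xist only 8 passed, 4 of them among the 32. Ccl19 and Myoc passed under 12 of 15 alternatives each, all but the unblocked, the 3-week and the Xist-only ones. DESeq2 called neither Cxcl14 nor H2-Aa, and Apod passed under 7 of 15 alternatives, with a log2 change of -0.01 among members with Xist only. Nr2f2 and Stc2 passed under 5 of 15 and 5 of 14, and Rtn1 and Ntf3 under 4 of 15 and 4 of 13.

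At a single age, with 1 library per genotype, ratios have no replicate and are given with exact intervals for counting error. At 8 weeks, 86 of 2927 genes (2.94%) were at least 2-fold higher in K/B.g7 and 34 (1.16%) at least 2-fold lower, 4.1% in either direction. Cd74 led, at 240.3 CPM in K/B.g7 members against 5.43 CPM in B.g7 members (ratio 44.2, 22.2 to 103). Cxcl14 followed at 38.3-fold, H2-Ab1 at 32.2-fold and the T cell chemokine Ccl5 at 26.6-fold. The lowest was Smad6, at 8.66 CPM in K/B.g7 members against 106.6 CPM in B.g7 members (ratio 0.0812, 0.0411 to 0.146). Sfrp2, a secreted Wnt inhibitor, was at 66.4 CPM in K/B.g7 members against 240.3 CPM in B.g7 members (ratio 0.276, 0.217 to 0.348). The B cell genes given above were highest in that same K/B.g7 library, and 7 T cell genes summed to 43.3 CPM in K/B.g7 members against 6.11 CPM in B.g7 members at this age. The part of such cells in these ratios was not tested.

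At 25 weeks, 142 of 3048 genes (4.66%) were at least 2-fold higher in K/B.g7 and 36 (1.18%) at least 2-fold lower, 5.84% in either direction. Svep1, a large matrix adhesion protein, was at 115.2 CPM in K/B.g7 members against 16.7 CPM in B.g7 members (ratio 6.88, 4.5 to 11.03). Kcnk2, a potassium channel gene, was at 79.8 CPM in K/B.g7 members against 10.9 CPM in B.g7 members (ratio 7.31, 4.33 to 13.3). Irf1, an interferon-induced transcription factor, was lower, at 89.9 CPM in K/B.g7 members against 293.2 CPM in B.g7 members (ratio 0.307, 0.260 to 0.361). At 3 weeks, 156 of 3318 genes (4.70%) were at least 2-fold higher in K/B.g7 and 142 (4.28%) at least 2-fold lower, 8.98% in either direction. Comp, a cartilage matrix protein, stood out at 950.0 CPM in K/B.g7 members against 59.2 CPM in B.g7 members (ratio 16.0, 9.75 to 28.3), from 377 and 16 UMIs.

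Age was tested in the same fit as the contrast of 25 against 3 weeks, with 2 libraries of each age. At 25 weeks members held far more Inmt, metallothionein and complement C3 mRNA than at 3 weeks, and far less of the matrix transcripts Sparc, Eln and Col3a1. Of 9723 genes, 81 (0.833%) rose and 25 (0.257%) fell with age at an FDR of 0.05 by edgeR, 106 (1.09%) together, with 1324 (13.6%) at an unadjusted p under 0.05. The 3-week libraries also had the fewest members, 103 and 91.

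Inmt, whose values by library stand above, came from 3 UMIs in the 3-week pair. The ratio of 25 to 3 weeks in CPM was 52.4, with an interval of 17.9 to 254 for counting error (fitted log2 change 5.64, SE 0.51, adjusted p = 5.96e-05). Its level at 8 weeks was above that at 25 weeks in both genotypes. Of 13 resident fibroblast genes tested, Inmt alone passed, with 11 above 0 and a median of 0.68, against 0.03 over all genes. Dpep1 did not pass (1.51, adjusted p = 0.0673).

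Mt1 and Mt2 encode metallothioneins, small proteins that bind zinc and copper and are known to be induced by metals and by glucocorticoids. Their genes lie side by side on chromosome 8, and their promoters are shown because both transcripts changed with age. RefSeq gives Mt1 the promoter chr8:94178839-94179138 and Mt2 chr8:94172368-94172667, both on the plus strand of GRCm38.p6 and running from 250 bases before to 50 bases after the annotated start. Capitals mark matches to the core of the metal response element, searched as TGCGCNC and TGCACNC on both strands, and no matches overlapped.
Mt1: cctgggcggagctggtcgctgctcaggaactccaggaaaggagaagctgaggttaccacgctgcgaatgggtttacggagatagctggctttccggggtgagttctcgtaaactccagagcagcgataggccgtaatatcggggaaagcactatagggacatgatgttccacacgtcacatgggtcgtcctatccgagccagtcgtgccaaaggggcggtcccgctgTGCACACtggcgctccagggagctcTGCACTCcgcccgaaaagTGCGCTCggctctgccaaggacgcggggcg
Mt2: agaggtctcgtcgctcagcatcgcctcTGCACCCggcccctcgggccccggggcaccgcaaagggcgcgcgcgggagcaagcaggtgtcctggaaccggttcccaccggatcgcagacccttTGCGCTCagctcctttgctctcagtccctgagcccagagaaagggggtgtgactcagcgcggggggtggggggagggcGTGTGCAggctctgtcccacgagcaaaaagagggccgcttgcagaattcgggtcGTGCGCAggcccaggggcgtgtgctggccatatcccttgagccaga
The Mt1 promoter held 3 matches and the Mt2 promoter 4, and 647 of 32851 promoters in the table (1.97%) held 3 or more while 25.7% held at least 1. A match is a run of letters and was not tested as a binding site.

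Mt1 was at 577.1, 2328 and 4426 CPM in K/B.g7 members and at 629.3, 1917 and 3318 CPM in B.g7 members. It stood higher at each later age in both genotypes, and all 25-week values were above all 3-week values (25 against 3 weeks, log2 change 2.74, SE 0.28, adjusted p = 1.87e-04). Mt2 was at 85.7, 310.2 and 520.7 CPM in K/B.g7 and at 174.0, 250.5 and 376.2 CPM in B.g7. Its order over the ages was the same (1.89, SE 0.33, adjusted p = 0.0124). Neither passed among members with Xist only, where the log2 changes were 0.90 and 0.91; that setting left from 34 to 321 members per library. Of 15 lipid and glucocorticoid genes tested, Mt1 and Mt2 were the 2 that passed, and Fkbp5 and Zbtb16, known glucocorticoid targets, had 1.58 and 1.59 without passing (adjusted p = 0.244 and 0.289).

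Gsta3, an alpha-class glutathione S-transferase, was at 5.04, 106.8 and 48.6 CPM in K/B.g7 and at 3.70, 76.0 and 38.6 CPM in B.g7, from 3 UMIs in the 3-week pair (ratio of 25 to 3 weeks 10.0, 3.38 to 49.1; adjusted p = 0.00677). Gstm1, a mu-class transferase, rose by 1.66 on the log2 scale (adjusted p = 0.0110) and Hsd11b1, which regenerates active glucocorticoid, by 2.20 (adjusted p = 0.0306). Of 13 alternatives each, Gstm1 passed under 12 and Hsd11b1 under 6. Of 17 xenobiotic, retinoid and steroid genes, Inmt and Gstm1 passed, with 12 above 0 and a median of 1.05.

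C3, the central complement component, was at 50.4, 1043 and 453.8 CPM in K/B.g7 and at 107.4, 313.7 and 494.1 CPM in B.g7. It was low at 3 weeks in both genotypes, highest at 8 weeks in K/B.g7, and similar in the 25-week pair (log2 change 2.71, SE 0.47, adjusted p = 0.0124 by edgeR; not called by DESeq2). It was the 1 of 11 complement genes that passed, all 11 being above 0 with a median of 1.08. Efemp1, fibulin 3, was at 7.56, 150.8 and 74.3 CPM in K/B.g7 and at 25.9, 162.3 and 160.1 CPM in B.g7. Both 3-week libraries were below all later ones (2.92, SE 0.44, adjusted p = 0.00558). Of 11 type I interferon genes Ifi27l2a rose (2.00) and none fell, with 10 above 0 and a median of 0.70. Of 11 interferon-gamma genes Cxcl10 fell and none rose, with 6 above 0 and a median of 0.09. None of 12 MHC class I genes passed (12 above 0, median 0.60). Ifi205, Ifi211, Ifi204 and Mndal, interferon-inducible genes that were on no list, rose by 4.06, 3.01, 2.01 and 2.30. Igfbp5 and Igfbp6, binding proteins of insulin-like growth factors, rose by 1.28 and 1.31. Igfbp5 passed under 8 of 13 alternatives, with log2 changes from 0.03 to 1.85.

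Ribosomal protein genes made up part of the list, with 14 of 82 tested passing as higher at 25 weeks, none as lower, 62 above 0 and a median log2 change of 0.28. Rps28 was at 385.5, 1781 and 4484 CPM in K/B.g7 and at 792.2, 3181 and 2110 CPM in B.g7 (2.65, adjusted p = 0.00677). Cxcl14, at 0 UMIs in the 3-week pair, was at least 39.0-fold higher at 25 weeks, against a floor of 3 counts over that pair. On the same reckoning the mesothelial genes Upk3b, Msln and Muc16 were at least 11.3-fold, 5.47-fold and 4.40-fold higher, beside the summed mesothelial levels of 60.7 CPM in K/B.g7 and 218.3 CPM in B.g7 at 25 weeks and 5.04 and 0 CPM at 3 weeks. In K/B.g7 at 25 weeks 9 of 971 members held 75.0% of the mesothelial UMIs, and the part of such cells in these differences was not tested.

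Some matrix transcripts fell. Sparc, a collagen-binding matricellular protein, was at 13380, 1267 and 2270 CPM in K/B.g7 members and at 9422, 1246 and 2428 CPM in B.g7 members. Both 3-week libraries were several times above the 4 later ones (log2 change -2.20, SE 0.28, adjusted p = 0.00158). Eln, elastin, was at 1981, 102.5 and 348.3 CPM in K/B.g7 and at 855.2, 112.0 and 176.1 CPM in B.g7. Its lowest level in both genotypes was at 8 weeks (-2.35, SE 0.32, adjusted p = 0.00285). Both genes were also highest at 3 weeks in the other gated fibroblasts. Sparc there was at 14060, 2232 and 2986 CPM in K/B.g7 and at 11500, 1668 and 3933 CPM in B.g7. Eln there was at 2073, 88.1 and 263.1 CPM in K/B.g7 and at 890.7, 105.6 and 265.6 CPM in B.g7. Sparc and Eln, and of the genes above Ifi27l2a, passed under all 13 alternatives tried for them.

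Col3a1, fibrillar collagen III, was at 9185, 1411 and 2672 CPM in K/B.g7 and at 6590, 1560 and 2532 CPM in B.g7. It was again high at 3 weeks in both genotypes and lowest at 8 weeks (-1.52, SE 0.28, adjusted p = 0.0148). It was the 1 of the 13 collagens on the list that passed, and none of the 13 was above 0, with a median of -0.63; Col1a1 and Col1a2 belong to the gate and were left out. C1qtnf6, a secreted C1q-like protein, fell by 2.57 (adjusted p = 3.77e-04) and Mfap2, a microfibril protein that binds elastin, by 1.67 (adjusted p = 0.00677). Cpz, a carboxypeptidase, fell by 2.32.

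Cxcl10, an interferon-gamma-induced chemokine, was at 65.5, 67.1 and 10.9 CPM in K/B.g7 and at 111.1, 25.1 and 21.8 CPM in B.g7. It was lowest at 25 weeks in both genotypes (-2.40, SE 0.48, adjusted p = 0.0249) and did not pass among members with fewer than 2 UMIs of each other lineage (-2.06, adjusted p = 0.186). Cks2, a cell cycle gene, fell by 3.45; none of the 4 proliferation genes tested passed (median -1.06).

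**Figure D5:**
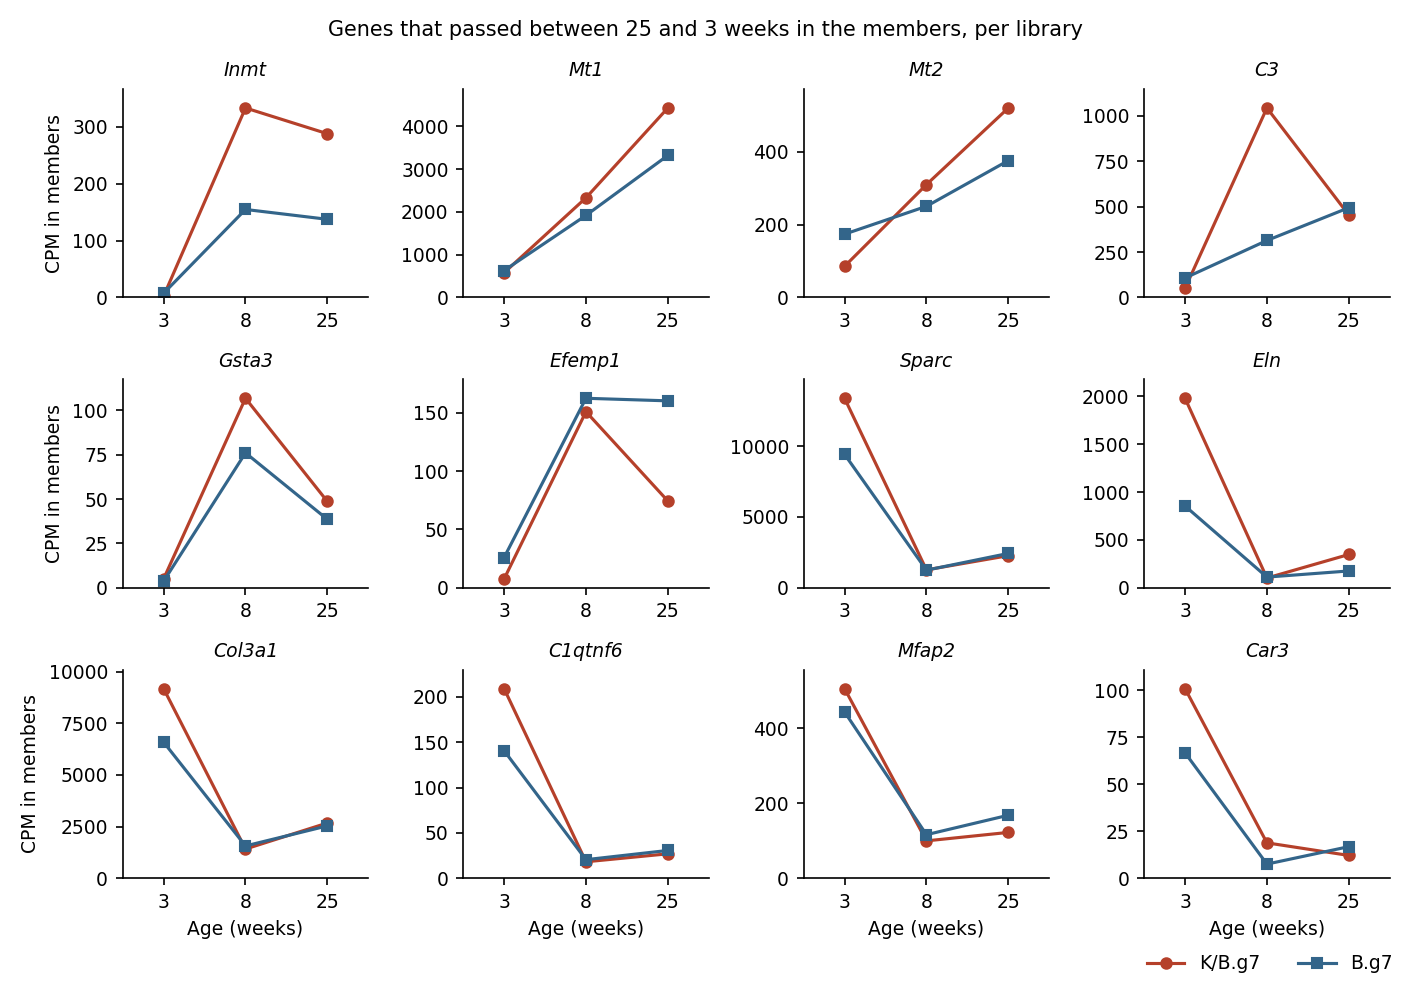
CPM in members for 12 genes that passed between 25 and 3 weeks, with age in weeks on the x axis (evenly spaced) and a linear y axis from 0; lines join the 3 libraries of a genotype (circles K/B.g7, squares B.g7). Inmt, Mt1, Mt2, C3, Gsta3 and Efemp1 are lowest at 3 weeks, and Sparc, Eln, Col3a1, C1qtnf6, Mfap2 and Car3 are highest at 3 weeks in both genotypes.

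The age calls were fewer without genotype in the model, at 28, and fewest among members with Xist only, at 5, all 28 and all 5 being among the 106. Without the 8-week pair, 104 of the 106 were called among 191.

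Whether the genotype effect in members differed from that in the other gated fibroblasts was tested as an interaction over 12 sums, 2 per library. The log2 change of K/B.g7 over B.g7 in members minus that in the other gated fibroblasts was positive for 35 of 12915 genes (0.271%) and negative for 13 (0.101%) at an FDR of 0.05 by edgeR, 0.372% together. The sign does not say in which cells the effect was larger. In this comparison DESeq2 called 0 (90 at an unadjusted p under 0.05 by DESeq2 and 628, 4.86%, by edgeR). The 35 include Igfbp3 and Lpl, which the rule itself limits, and the 13 include 4 hemoglobin genes. Without members of 5 or more hemoglobin UMIs, 25 genes passed, all among the 48.

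Cxcl14 in the other gated fibroblasts was at 36.3, 773.6 and 304.9 CPM in K/B.g7 and at 39.1, 85.02 and 157.9 CPM in B.g7, above the member values given before in every library. The fold between genotypes was larger in members, by 1.63 on the log2 scale (SE 0.22, adjusted p = 3.55e-09 by edgeR). Scara5 was at 17.6, 64.9 and 95.7 CPM in K/B.g7 members and at 18.5, 8.15 and 16.7 CPM in B.g7 members, against 53.3, 104.7 and 103.2 CPM and 61.8, 28.6 and 68.3 CPM in the other gated fibroblasts of K/B.g7 and B.g7. The genotypes lay further apart in members at 8 and 25 weeks (difference 1.5, SE 0.25, adjusted p = 5.05e-06). This call was lost without the 25-week pair (difference 0.91), with fewer than 2 UMIs of each other lineage (1.20) and against the low-marker cells (0.57). Against the low-marker cells without Tcf21 in place of all other gated fibroblasts, 36 genes passed, of which 6 were among the 48, and the Cxcl14 difference turned to -1.01.

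Timp1, an inhibitor of matrix metalloproteinases, was at 481.3, 184.0 and 204.3 CPM in K/B.g7 members and at 359.1, 217.3 and 272.1 CPM in B.g7 members. In the other gated fibroblasts it was at 470.0, 1245 and 185.8 CPM in K/B.g7 and at 314.6, 189.5 and 223.6 CPM in B.g7, so the 8-week K/B.g7 library stood out there and not in members. The difference was -1.13 on the log2 scale (SE 0.16, adjusted p = 5.54e-08 by edgeR). Timp1 passed under 8 of 13 alternatives, with differences from -1.67 to -0.16. The call was lost without the 8-week pair, with fewer than 2 UMIs of each other lineage and with members chosen at 2000 UMIs. It was also lost against the low-marker cells and by DESeq2. The rule limits Mmp3 and Lcn2, and 250 of the gated fibroblasts with Tcf21 were over that limit. Those cells are among the other gated fibroblasts, as are any such cells without Tcf21. Cytl1, a secreted cartilage-associated factor, was at 201.6, 299.4 and 311.4 CPM in K/B.g7 members and at 236.9, 768.5 and 637.4 CPM in B.g7 members, against 552.6, 197.9 and 361.0 CPM and 155.5, 497.0 and 516.0 CPM in the other gated fibroblasts of K/B.g7 and B.g7. At 3 weeks the genotypes were ordered differently in the 2 groups of cells (difference -0.67, SE 0.15, adjusted p = 0.00346).

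For Ccl19 and Myoc no difference from the other gated fibroblasts was detected. Ccl19 in the other gated fibroblasts was at 46.0, 151.7 and 132.0 CPM in K/B.g7 and at 25.2, 63.0 and 41.4 CPM in B.g7, higher in K/B.g7 at every age as in members (interaction 0.23, SE 0.16, adjusted p = 1.0 by edgeR). Myoc there was at 114.4, 157.4 and 107.4 CPM in K/B.g7 and at 166.3, 330.7 and 229.5 CPM in B.g7, lower in K/B.g7 at every age as in members (-0.39, SE 0.14, adjusted p = 0.50). Apod differed, with a genotype effect larger in members by 0.99 (SE 0.19, adjusted p = 1.70e-04). So did Inmt, by 0.81 (SE 0.15, adjusted p = 2.02e-04), although its genotype change within members did not pass (0.94, adjusted p = 0.165).

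The age effect differed between members and the other gated fibroblasts for 18 of 12915 genes (0.139%) by edgeR, with a positive difference, members minus other gated fibroblasts, for 15 (0.116%) and a negative one for 3 (0.0232%), and for 0 by DESeq2 (145 at an unadjusted p under 0.05 by DESeq2 and 673, 5.21%, by edgeR). Mt1 in the other gated fibroblasts was at 632.3, 1528 and 1847 CPM in K/B.g7 and at 503.6, 1735 and 2374 CPM in B.g7. The step of 25 over 3 weeks was larger in members by 0.91 on the log2 scale (SE 0.16, adjusted p = 6.33e-05), with Mt2 at 0.29 (adjusted p = 0.995). For the contractile genes Acta2, Tagln and Myl9 the difference was 1.11, 1.34 and 0.97. Tagln was at 327.6, 111.8 and 318.8 CPM in K/B.g7 members and at 92.5, 57.7 and 346.4 CPM in B.g7 members, so the 25-week B.g7 library was high against its own 3-week value and the K/B.g7 pair was level. None of the 7 mural genes passed in this comparison, with 6 above 0 and a median of 0.65. The Tagln difference did not pass without predicted doublets or with fewer than 2 UMIs of each other lineage (0.58 in each case). For Inmt the difference of 2.22 did not pass (adjusted p = 0.173).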

How the data were processed

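Single-cell 3' RNA-seq libraries of live sorted mitral valve cells (10x Genomics) were aligned to mm10 and counted with Cell Ranger 3.1.0, per the submitters' processing notes, and the authors deposited a matrix of raw UMI counts per gene and barcode for each of the 6 libraries. Barcodes, the collagen gate and the member rule were applied to those counts as given in the report. The members, the 34 gene lists and the tests were chosen with earlier results of these data known. Counts of members, and of the other gated fibroblasts, were summed per library. Genes kept by filterByExpr were tested with edgeR 4.0.16 (TMM factors 0.932 to 1.049, quasi-likelihood test, Benjamini-Hochberg adjustment, FDR of 0.05; R 4.3.3), in 1 model of genotype and age with 2 residual degrees of freedom; 12 sums gave the interactions. All adjusted p-values are from these models unless DESeq2 1.42.0 is named. SE is the size of the log2 change divided by the square root of F. CPM used the summed UMIs without TMM factors.

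Libraries of the same age share that label, and their deviations from the genotype means correlated by 0.284, 0.270 and 0.122 at 3, 8 and 25 weeks, so age served as a block. With 1 library per genotype and age and the number of mice not given, a p-value reflects no more than how far the libraries scatter, which may be technical. The edgeR fits also share that scatter across genes. Beside 2 residual degrees of freedom, the median prior degrees of freedom were 14 for genotype and age and 257 for interactions. Interaction p-values and SEs thus rest mostly on a spread pooled over genes, and little on a gene's own scatter between libraries. Intervals are 95% and, like the floors of 3 counts, cover counting error only. Doublets were ranked by Scrublet score (scanpy 1.11.5, Python 3.11.15) and the top 0.8% per 1000 barcodes marked, since the automatic threshold marked 62 of all barcodes. They were kept, with an alternative without them.

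Named genes were up to 10 per direction of largest change that passed, had 1 sign in all pairs and averaged at least 20 CPM, up to 5 per direction for interactions and for each age, up to 4 members of each list, and the 20 highest and 10 lowest against the other gated fibroblasts. Other genes named were chosen after their values were seen. Alternatives covered DESeq2, no count filter, left-out ages, no block, doublets, shared barcodes, depth, Xist-positive cells, a Tcf21 minimum of 2 and equal cell numbers (91 per library). Those on hemoglobin, other lineages, the rule at 2000 UMIs and the low-marker cells were chosen after seeing the data. The fits were tested on simulated data. Promoters came from RefSeq (GRCm38.p6) and gene positions from the mm10 annotation.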

Additional observations from a re-analysis of the deposited data

Results flagged for a closer look

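The genotype effect in members differed from that in the other gated fibroblasts for 10 named genes, by the edgeR interaction test. The difference, members minus other gated fibroblasts on the log2 scale, was positive for the class II gene H2-Ab1 (1.63), Cxcl14 (1.63), Scara5 (1.5), Kcnk2 (1.39) and Lox (1.29). H2-Ab1 was at 0, 131.3 and 13.2 CPM in K/B.g7 members and at 3.70, 4.07 and 11.6 CPM in B.g7 members, against 15.6, 112.0 and 9.53 CPM and 5.28, 22.1 and 16.4 CPM in the other gated fibroblasts of K/B.g7 and B.g7. H2-Aa and Cd74 were the other class II genes that passed, of 7 tested, with differences of 1.76 and 1.07. B cell genes summed to 137.1 CPM in K/B.g7 members at 8 weeks. The H2-Ab1 difference did not pass with fewer than 2 UMIs of each other lineage (0.94, adjusted p = 0.997), without the 8-week pair (0.81, adjusted p = 1.0) or against low-marker cells (1.23, adjusted p = 0.589). The difference was negative for Timp1 (-1.13), the angiopoietin receptor Tek (-0.83), Cox4i2 (-0.80), the TWEAK receptor Tnfrsf12a (-0.73) and Cytl1 (-0.67). Of 13 alternatives each, Timp1 passed under 8, Cox4i2 under 7, Tnfrsf12a under 6, Cytl1 under 5 and Tek under 3. None of the 10 was called by DESeq2, which called 0 genes in this comparison.

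The effect of 25 against 3 weeks differed in the same way for 7 named genes. The difference was positive for Cxcl14 (11.15, a fitted value that depends on the prior count because no member had a UMI at 3 weeks), Cd74 (4.0), Tnnt2 of cardiac muscle (2.59), Tagln (1.34) and the activin inhibitor Fst (1.26). The Cd74 difference did not pass without predicted doublets (2.46, adjusted p = 0.899) or with fewer than 2 UMIs of each other lineage (0.52, adjusted p = 0.999). That of Tnnt2 did not pass under the lineage limit (8.52, adjusted p = 0.999). The limit counts Tnnt2 itself among the cardiomyocyte genes, so it cannot decide whether such cells take part in the Tnnt2 difference. Tnnt2 passed under 6 of 11 alternatives. The macrophage gene Lyz2 and the cardiac gene Myl7 passed as well. The 8 macrophage genes summed to 47.9, 57.0 and 37.8 CPM in K/B.g7 members and to 3.70, 8.15 and 67.7 CPM in B.g7 members, and the 9 cardiomyocyte genes to 20.2, 80.1 and 76.7 CPM in K/B.g7 members and to 37.0, 69.9 and 53.9 CPM in B.g7 members. The difference was negative for Cxcl10 (-1.75) and the adhesion molecule Vcam1 (-0.76). Vcam1 was at 448.5, 517.3 and 279.1 CPM in K/B.g7 members and at 251.7, 305.5 and 265.6 CPM in B.g7 members, against 148.9, 614.3 and 253.7 CPM and 178.6, 364.7 and 202.9 CPM in the other gated fibroblasts of K/B.g7 and B.g7.

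The share of members among gated fibroblasts was higher in K/B.g7 than in B.g7 by 2.40 percentage points at 25 weeks and lower by 4.84 points at 8 weeks (K/B.g7 minus B.g7 -4.84). The difference between these ages was not tested, with 1 library per genotype at each, and with cells thinned to 2000 UMIs the share was lower in K/B.g7 at both ages.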

How the results depend on the processing

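The share difference (K/B.g7 minus B.g7) ranged over -2.74 to 1.65 points of gated fibroblasts when 1 library was left out, with 0.487 without K/B.g7 at 3 weeks, and over -0.926 to 0.910 points of all barcodes kept, with 0.761 without K/B.g7 at 3 weeks. With age as a replicate block its permutation p was 0.75. Between genotypes (32), the total called was 3 to 41 with 1 age left out, 9 with DESeq2 and 149 without a count filter. It was 11 in cells of at least 2000 UMIs, 8 with Xist only, 16 with equal cells and 12 with fewer than 2 UMIs of each other lineage. Fewer of the 32 themselves were called again. These were 2, 15 and 14 without 3, 8 and 25 weeks, 8 with DESeq2 and 4 with Xist only. They were 10 with equal cells, 10 under the lineage limit and 13 with members chosen at 2000 UMIs. Without the replicate block of age 0 were called, with 474 at an unadjusted p under 0.05. Between ages (106), 191 were called without 8 weeks, 333 without a filter, 43 in cells of at least 2000 UMIs, 5 with Xist only, 28 with age alone in the model (no replicate block, so genotype left out) and 227 with members chosen at 2000 UMIs. For the difference in genotype effect (48), DESeq2 called 0, and Xist only, fewer than 5 hemoglobin UMIs and fewer than 2 UMIs of each other lineage gave 25, 25 and 22. For the difference in age effect (18), DESeq2 called 0, and no doublets, fewer than 5 hemoglobin UMIs, members chosen at 2000 UMIs and low-marker comparison cells gave 6, 9, 8 and 3. Signs turned for Apod between genotypes with Xist only (-0.01), for Cxcl14 (-1.01) and Kcnk2 (-0.22) against low-marker cells, for Lox with Xist only (-0.09) and over -0.04 to 2.15 with 1 age left out, all in the difference in genotype effect after Apod, and for Cxcl10 in the difference in age effect with Xist only (0.17); the causes were not tested. The 3-week libraries, with 91 and 103 members, limit every value near 3 UMIs.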
